A study of Nothobranchius furzeri with 20 samples.

Results

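The rotenone response of the turquoise killifish brain was compared between 2 ages, as the difference between the rotenone effect at 27 weeks and the rotenone effect at 9 weeks, in all 20 of the 20 libraries of the study. Every library was made from brain RNA of male Nothobranchius furzeri of strain MZM-04/10p. The 4 groups, of 5 libraries each, were 9-week DMSO, 9-week rotenone, 27-week DMSO and 27-week rotenone. The rotenone dose was 1% of the LC50, the concentration lethal to the median animal, and DMSO was the solvent control. How rotenone was given, and for how long, is not stated in the labels, and no female or untreated group is part of the comparison.

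Rotenone blocks complex I of the mitochondrial respiratory chain, which passes electrons from NADH to ubiquinone and pumps protons for ATP synthesis. High doses are used to model the loss of dopaminergic neurons in Parkinson's disease, and low doses have been studied as a mild mitochondrial stress. The turquoise killifish lives for only a few months and is kept for the study of ageing, so that 9 weeks lies in early adulthood and 27 weeks late in life. A 2 by 2 design of this kind asks, gene by gene, whether the change with rotenone at one age is the same as at the other. In the results, a negative difference between the ages means that rotenone went with a lower level, relative to DMSO, at 27 weeks than at 9 weeks.

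The files list genes by identifiers without names, and none of these identifiers was found in the RefSeq gene table, so the genes have no known function here and the brain label could not be set against marker genes. Library totals ran from 19433958 to 24159773 counts, and of 26739 genes 19452 passed a filter on low counts. Levels are given as CPM, a gene's share of its library's counts, scaled between libraries by TMM. Effects are log2 differences with a standard error (SE), from edgeR's quasi-likelihood test, and a gene was called where the p adjusted for all tested genes by the Benjamini-Hochberg method lay below 0.05. Whether each library came from a different fish is not in the labels, and the p-values then reflect only how much these libraries vary, which may be technical.

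With edgeR and all libraries, 4 genes were called for a rotenone effect that differed between the ages, 0.0206% of the 19452 tested. In all 4 the difference was negative. Genes that were not called are not shown to have equal effects at both ages. Sorted by eye and without a test, the values of the 4 called genes followed 2 courses. None of the 4 was called for rotenone at 9 weeks. In Nfu_g_1_018392 and Nfu_g_1_018359, rotenone went with a lower level at 27 weeks and with almost no difference at 9 weeks. In Nfu_g_1_020462 and Nfu_g_1_005740, rotenone libraries lay above DMSO libraries at 9 weeks and below them, on average, at 27 weeks. With the main settings edgeR called no gene with a positive difference (0.00%), where 783 genes of that direction had an unadjusted p below 0.05. Other edgeR settings did call some: a stricter filter on low counts gave 4 positive and 6 negative genes. Scaling by library totals gave 1 positive and 5 negative. For the positive direction, DESeq2 called 32 genes, limma-voom 2 and limma-voom with library quality weights 7. For the negative direction these tools called 110, 4 and 11 genes, and the 4 genes were among those called by each. For the difference, Nfu_g_1_018359 and Nfu_g_1_005740 were named after their values were seen, as were Nfu_g_1_020841 and Nfu_g_1_014206 further on, while the other genes follow a rule. Choosing genes for a difference favors groups without overlap and effects of opposite sign. How many of all genes lack overlap was not counted, so overlap is given as a description.

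**Figure D1:**
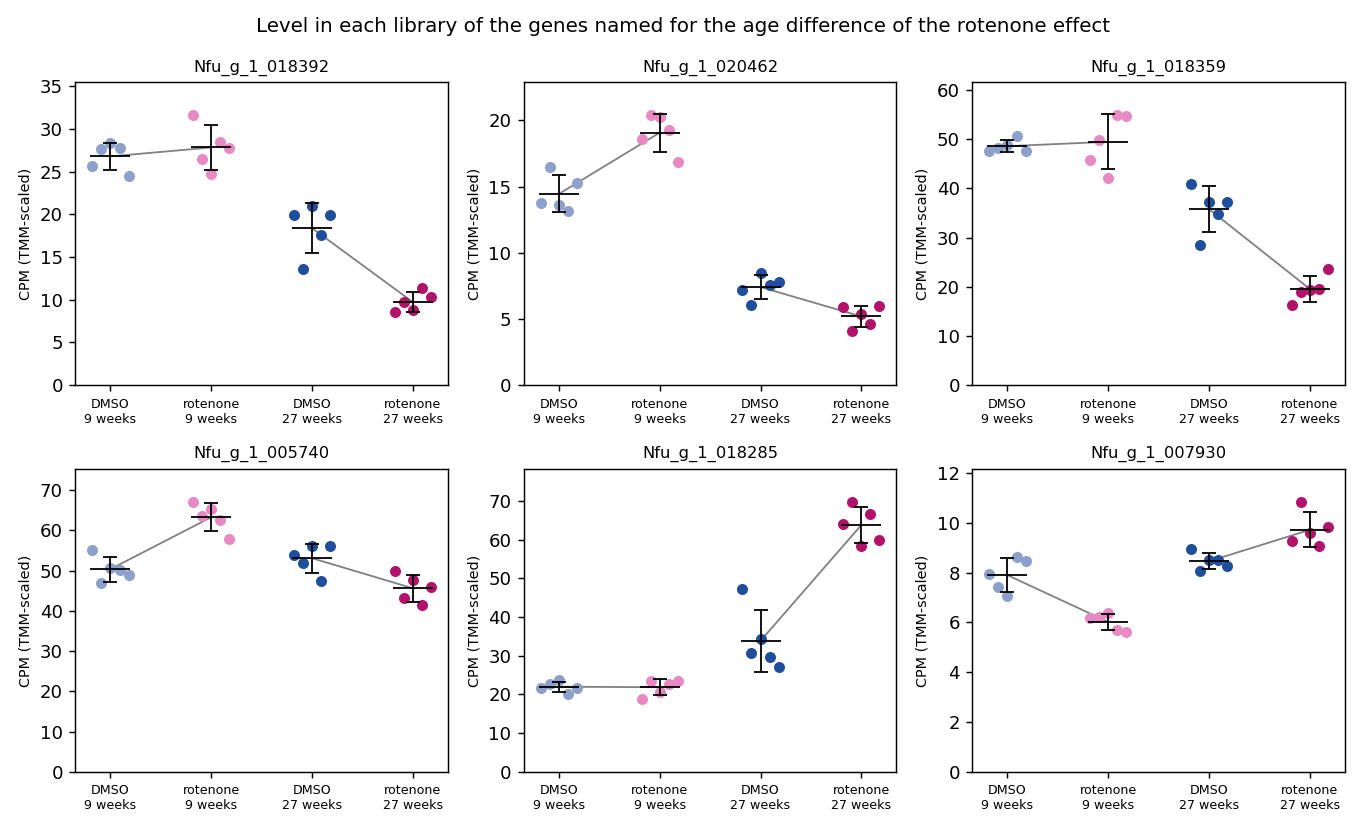
Level of 6 genes in CPM (y axes, from 0) in each of the 20 libraries, by group; dots are libraries, black bars the mean and SD of 5 libraries, and grey lines join DMSO to rotenone within an age. The grey lines slope differently at the 2 ages, which choosing the genes for this difference favors. The first 4 genes were called by edgeR for this difference, and Nfu_g_1_018285 and Nfu_g_1_007930 were not.

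Nfu_g_1_018392 was lowest in the 27-week rotenone libraries. It stood at 25.7, 27.6, 28.3, 27.8 and 24.5 CPM in the 9-week DMSO libraries and at 31.7, 26.5, 24.7, 28.5 and 27.8 CPM in the 9-week rotenone libraries. At 27 weeks it stood at 19.9, 13.6, 21.01, 17.5 and 19.9 CPM with DMSO and at 8.51, 9.68, 8.76, 11.4 and 10.3 CPM with rotenone. The young groups overlapped, while all 5 old rotenone libraries lay below all 5 old DMSO libraries, which in turn lay below every young library. The rotenone effect on the log2 scale was -0.92 ± 0.11 (SE, n = 5 against 5) at 27 weeks, a 1.89-fold fall (edgeR adjusted p = 0.000443). At 9 weeks it was 0.06 ± 0.10, with a 95% interval from -0.16 to 0.27 (edgeR adjusted p = 0.988). The difference between the ages was -0.97 ± 0.15, with an interval from -1.28 to -0.66 (edgeR adjusted p = 0.0315). Since the same difference separates the change with age in rotenone from that in DMSO, the gene fell with age 2.86-fold in rotenone libraries and 1.46-fold in DMSO libraries.

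Nfu_g_1_018359 followed the same course at a higher level. Its 9-week values were 47.6 to 50.6 CPM with DMSO and 42.2 to 55.0 CPM with rotenone. At 27 weeks they were 41.0, 28.4, 37.3, 34.9 and 37.3 CPM with DMSO and 16.3, 18.9, 19.4, 19.6 and 23.7 CPM with rotenone. The old groups did not overlap and the young groups did, with the young rotenone values spread to both sides of the DMSO values. The log2 effect of rotenone was -0.87 ± 0.10 at 27 weeks and 0.03 ± 0.10 at 9 weeks (SE), a difference between the ages of -0.90 ± 0.14 (edgeR adjusted p = 0.0315).

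Both genes occupy neighbouring rows of the count table and moved together. Their log2 CPM had a correlation of 0.98 over the 20 libraries, which includes the shared group differences, and of 0.66 after each group's mean was removed. Among 15430 pairs of neighbouring rows with both genes tested, the median of the first value was 0.080 and that of the second 0.071. Of these pairs, 0.149% reached 0.98 in the first and 5.98% reached 0.66 in the second. Choosing genes for the same difference favors a high first value: Nfu_g_1_020462, on the distant row 16305, had 0.90 with Nfu_g_1_018392 and 0.88 with Nfu_g_1_018359. The CPM ratio of Nfu_g_1_018359 to its neighbour Nfu_g_1_018392 ran from 1.45 to 2.30. Whether the counting gave both identifiers reads of the same transcript cannot be told from the files, since neither the annotation nor the strand setting is stated.

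Nfu_g_1_020462 had rotenone differences of opposite sign at the 2 ages, without overlap of the groups at either. The gene was chosen for its difference between the ages, which favors both traits. It stood at 13.7, 16.5, 13.6, 13.2 and 15.3 CPM in the 9-week DMSO libraries and at 18.6, 20.4, 20.2, 19.3 and 16.9 CPM with rotenone. At 27 weeks it stood at 7.20, 6.06, 8.46, 7.53 and 7.77 CPM with DMSO and at 5.88, 4.08, 5.36, 4.59 and 5.996 CPM with rotenone. All young rotenone libraries thus lay above all young DMSO libraries, and all old rotenone libraries below all old DMSO libraries. The log2 effect was -0.52 ± 0.11 at 27 weeks (SE; edgeR adjusted p = 0.0482) and 0.40 ± 0.11 at 9 weeks, which did not pass on its own (edgeR adjusted p = 0.247). The difference between the ages was -0.92 ± 0.15 (edgeR adjusted p = 0.0472). With age the gene fell 3.68-fold in rotenone and 1.95-fold in DMSO libraries.

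Nfu_g_1_005740 passed the test of the difference while neither age passed by itself. It stood at 55.2, 46.8, 50.6, 50.2 and 49.0 CPM in 9-week DMSO libraries and at 67.2, 63.6, 65.2, 62.5 and 57.9 CPM in 9-week rotenone libraries. Its 27-week values were 53.9, 51.8, 56.1, 47.5 and 56.0 CPM with DMSO and at 49.9, 43.2, 47.7, 41.4 and 45.8 CPM with rotenone. The young groups did not overlap, with rotenone higher, and the old groups overlapped, with a lower mean in rotenone. The log2 effects were 0.33 ± 0.06 at 9 weeks and -0.22 ± 0.06 at 27 weeks (SE; edgeR adjusted p = 0.0710 and 0.114). Their difference, -0.55 ± 0.09, was the smallest of the 4 (edgeR adjusted p = 0.0315). The gene did not pass for age in DMSO, with a log2 change of 0.08 ± 0.06, and fell with age 1.39-fold in rotenone libraries (edgeR adjusted p = 0.404 and 1.67e-05).

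Below the threshold the direction was mixed. With an adjusted p below 0.1 there were 25 genes (0.129%), 7 with a positive difference (0.0360%) and 18 with a negative one (0.0925%). Of these, 9 genes had an adjusted p from 0.05 to below 0.06, 6 with a positive and 3 with a negative difference. The positive gene with the smallest p, Nfu_g_1_018285, stood at 20.2 to 23.7 CPM in 9-week DMSO and at 18.8 to 23.6 CPM in 9-week rotenone libraries. The 27-week values were 47.3, 30.7, 34.2, 29.8 and 27 CPM with DMSO and 64.0, 69.8, 58.5, 66.5 and 59.9 CPM with rotenone. Every old rotenone library lay above every other library, the young groups overlapped, and DMSO replicate 1 was the highest of the old DMSO libraries. Its rotenone effect of 0.91 ± 0.11 at 27 weeks passed (edgeR adjusted p = 0.000443). The difference between the ages was 0.92 ± 0.16, which did not (edgeR adjusted p = 0.0523). Without DMSO replicate 1 of 27 weeks it was 1.08 ± 0.11 (edgeR adjusted p = 0.000248), and without DMSO replicate 5 of that age 0.85 ± 0.15 (edgeR adjusted p = 0.0471). Over all 29 alternatives its adjusted p ran from 0.000244 to 0.119. DESeq2 and limma-voom, with and without library quality weights, each called this gene for the difference.

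The next gene of that direction, Nfu_g_1_007930, lay on opposite sides of DMSO at the 2 ages. It stood at 7.04 to 8.63 CPM with DMSO and at 5.62 to 6.38 CPM with rotenone at 9 weeks. The old libraries had 8.07 to 8.95 CPM with DMSO and 9.06 to 10.9 CPM with rotenone. Rotenone libraries were thus the lowest of all when young and the highest of all when old, with no overlap at either age. Choosing the gene by its small p for the difference favors this. Neither log2 effect passed, at -0.39 ± 0.08 when young (edgeR adjusted p = 0.0751) and 0.20 ± 0.07 when old (edgeR adjusted p = 0.220). The difference of 0.59 ± 0.11 also did not pass (edgeR adjusted p = 0.0523). Without DMSO replicate 1 of 27 weeks it was 0.61 ± 0.11 (edgeR adjusted p = 0.0290), and over all 29 alternatives the adjusted p ran from 0.00309 to 0.115. DESeq2 and limma-voom with library quality weights called it, and limma-voom without them did not.

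The genes called for rotenone at a single age were set beside their values at the other age. At 27 weeks 29 genes rose (0.149%) and 47 fell (0.242%) with rotenone, together 0.391% of those tested. The balance turned in some settings. More genes rose than fell with limma-voom (42 and 37) and without DMSO replicate 1 of 27 weeks (142 and 124). The same held without DMSO replicates 1 and 4 of 27 weeks (88 and 60). In all other alternatives more genes fell than rose. The numbers were 32 and 96 with library totals, 30 and 67 with size factors, and 39 and 89 with the stricter filter. They were 133 and 338 with DESeq2, and 208 and 221 with library quality weights. The 9-week libraries do not enter the 27-week difference, but they share in its error, and with the 27-week libraries alone 19 of the 76 stayed called, among 21 called. Among the 29 that rose, 10 had an unadjusted p below 0.05 and the same sign at 9 weeks, where 3.30% of all tested genes had such a p with a higher level in rotenone. Among the 47 that fell, 8 did so, where 3.69% of all genes had such a p with a lower level. Each gene has 1 error estimate for both ages, which favors a small p at both. These shares are therefore a description. In edgeR 0 of the 76 were called at 9 weeks, where 0.0257% of all genes were, so nothing is read from that 0. The median log2 effect of the 29 was 0.47 at 27 weeks and 0.10 at 9 weeks, and that of the 47 was -0.56 and -0.03, beside a median of -0.0018 over all genes at 9 weeks. For 6 of the 29 and 0 of the 47, the 95% interval of the 9-week effect held the value seen at 27 weeks. Choosing genes for a large effect at 27 weeks favors a smaller one at 9 weeks, so these medians and intervals are a description. The difference between the ages had an unadjusted p below 0.05 in 20 of the 29 and 42 of the 47, each time with the larger effect at 27 weeks, where 10.0% of all genes had such a p. Since the same 27-week libraries chose the genes and enter the difference, nothing is read from that count.

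**Figure D2:**
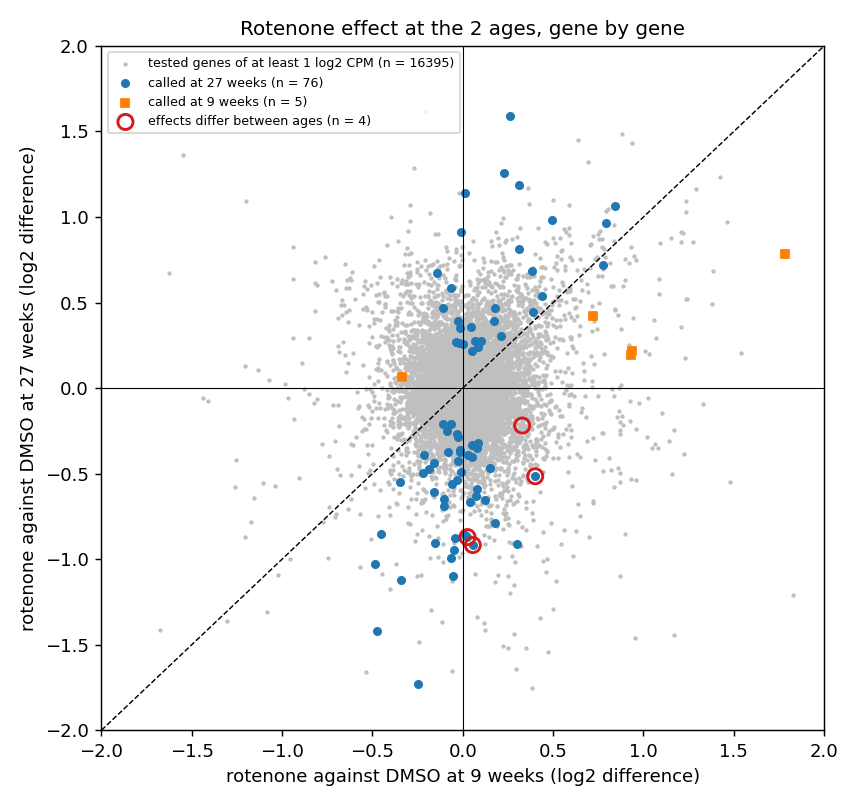
Log2 difference between rotenone and DMSO at 9 weeks (x axis) and at 27 weeks (y axis), 1 dot per gene of at least 1 log2 CPM; 8 of these 16395 genes lie outside the axes. Called genes are marked in color whatever their level, 1 of them outside the axes, and on the dashed line both ages have the same effect. Of the 76 genes called at 27 weeks, all but 1 lie nearer to 0 on the 9-week axis than on the 27-week axis. Choosing them at 27 weeks favors this. The 4 circled genes lie below 0 on the 27-week axis. On the 9-week axis Nfu_g_1_018392 and Nfu_g_1_018359 lie almost on 0, at 0.06 and 0.03. Nfu_g_1_020462 and Nfu_g_1_005740 lie to the right of 0.

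Nfu_g_1_010257 had the largest effect among the genes named for 27 weeks. It stood at 13.6, 14.2, 11.6, 14.2 and 14.3 CPM in the 27-week DMSO and at 30.2, 30.9, 26.14, 31.6 and 31.0 CPM in the 27-week rotenone libraries. At 9 weeks it ran from 11.4 to 15.2 CPM with DMSO and from 8.57 to 17.4 CPM with rotenone. The 27-week rotenone libraries stood apart from the other 15 libraries, which overlapped in their 3 groups. The log2 effect at 9 weeks was 0.01 ± 0.14 (SE), with a 95% interval from -0.29 to 0.31, and the 27-week effect of 1.14 ± 0.14 lay outside it. The difference of 1.13 ± 0.20 was larger than that of any of the 4 genes called by edgeR, with a larger error. It did not pass in edgeR (adjusted p = 0.0523), while DESeq2 and limma-voom, with and without library quality weights, each called it. The young rotenone libraries were spread from 8.57 to 17.4 CPM, an SD of 3.68 CPM against 1.16 to 2.20 CPM in the other groups.

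At 9 weeks 4 genes rose (0.0206%) and 1 fell (0.00514%) with rotenone, together 0.0257% of those tested. At 27 weeks edgeR called 0 of these 5, where 0.391% of all genes were called. Of the 4 that rose, 2 had an unadjusted p below 0.05 at 27 weeks, both with a higher level in rotenone. Counting either direction, 14.4% of all genes had such a p. The gene that fell, Nfu_g_1_001261, stood at 63.6, 68.4, 73.8, 70.7 and 70.5 CPM with DMSO and at 54.1, 54.9, 55.3, 56.7 and 54.3 CPM with rotenone. In old brains it ran from 49.7 to 61.8 CPM with DMSO and from 56.2 to 61.0 CPM with rotenone. The young DMSO libraries were the highest of all 20, and the other 3 groups overlapped. Its log2 effect was -0.33 ± 0.05 at 9 weeks and 0.07 ± 0.05 at 27 weeks (SE; edgeR adjusted p = 0.0198 and 0.562). The difference between the ages, 0.40 ± 0.07, did not pass (edgeR adjusted p = 0.0557). DESeq2 and limma-voom with library quality weights called that difference, and limma-voom without them did not. The 9-week call was lost in 8 of 30 alternatives, at an adjusted p of at most 0.0891 (edgeR).

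Both genes named as rising at 9 weeks had a higher mean with rotenone at 27 weeks too, and neither passed there. Nfu_g_1_005777 stood at 62.0, 66.6, 62.7, 65.7 and 88.2 CPM with DMSO and at 108, 120, 84.8, 134 and 123 CPM with rotenone at 9 weeks. In old brains it ran from 87.5 to 105 CPM with DMSO and from 113 to 138 CPM with rotenone. The young groups overlapped through 1 library on each side, and the old groups did not overlap. The log2 effects were 0.72 ± 0.11 and 0.42 ± 0.11 (SE; edgeR adjusted p = 0.0198 and 0.0986), and the difference of -0.30 ± 0.16 had an interval from -0.63 to 0.03. Nfu_g_1_012912 stood at 11.7, 12.9, 12.6, 12.6 and 18.01 CPM with DMSO and at 26.4, 29.8, 16.8, 27.8 and 28.4 CPM with rotenone at 9 weeks. At 27 weeks it ran from 13.0 to 15.4 CPM with DMSO and from 13.5 to 20.1 CPM with rotenone, so that the groups overlapped at both ages. Its log2 effects were 0.93 ± 0.14 at 9 weeks and 0.19 ± 0.14 at 27 weeks (SE; edgeR adjusted p = 0.0198 and 0.548), and the difference between the ages was -0.74 ± 0.20 (edgeR adjusted p = 0.211). The 9-week calls of both genes were lost in 9 of 30 alternatives, with adjusted p-values of 0.208 and 0.206 from the 9-week libraries alone (edgeR, Nfu_g_1_005777 first).

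Over all genes the difference between the ages was small, and its error was as large. The median size was 0.15 on the log2 scale, a 1.11-fold difference, and the median SE was 0.17, against 0.12 for rotenone at either age alone. The 95% interval of the difference lay within a 2-fold change in either direction for 14808 genes, 76.1% of those tested. That share was 96.6% among the 6483 genes of the highest level, 88.7% among the 6485 of middle level and 43.0% among the 6484 of the lowest. A difference of over 2-fold in size was fitted for 2.87% of all genes and for 0.170% of those of the highest level. The median half-width of the interval was 0.78 on the log2 scale for genes of the lowest level and 0.22 for those of the highest.

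**Figure D3:**
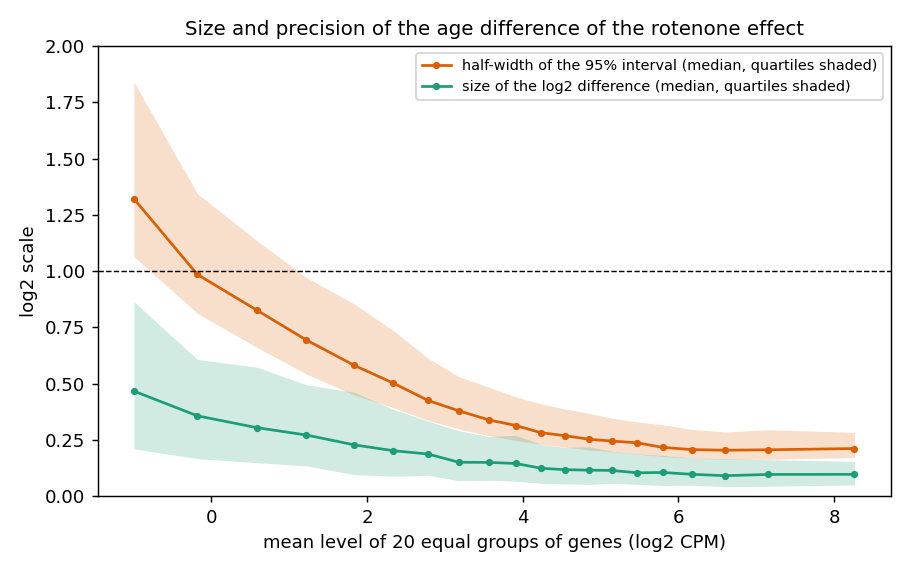
Size of the log2 difference between the ages and half-width of its 95% interval (y axis, log2 scale) against mean level (x axis, log2 CPM), as medians with quartiles in 20 equal groups of genes; the dashed line marks 2-fold. The half-width falls with level and the size of the difference stays below it at every level.

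More genes had small p-values than an even spread would give. For the difference between the ages 1947 genes, 10.0% of those tested, had an unadjusted p below 0.05, where an even spread gives 973. The share was 14.4% for rotenone at 27 weeks and 6.99% for rotenone at 9 weeks. Of the 1947 genes, 783 had a positive and 1164 a negative difference, 4.03% and 5.98% of all genes. Among the genes of the lowest level 153 were positive and 382 negative, and among those of the highest level 383 were positive and 354 negative. This split at the highest level turned to 309 positive and 434 negative when libraries were scaled by their totals, and to 314 and 422 with size factors, while at the lowest level totals gave 138 and 408. In 3 equal classes of gene length, the middle class held 203 positive and 459 negative genes, the shortest 257 and 339, and the longest 323 and 366. With totals these became 177 and 499, 211 and 384, and 273 and 441.

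**Figure D4:**
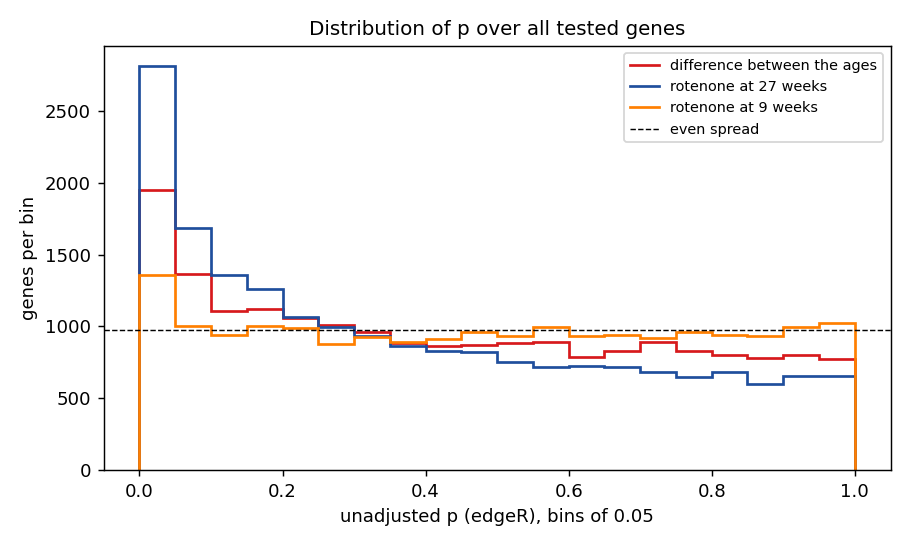
Number of the 19452 tested genes (y axis) in each bin of unadjusted edgeR p (x axis) for rotenone at 27 weeks, rotenone at 9 weeks and the difference between the ages. The first bin holds 2810, 1360 and 1947 genes, above the dashed line of an even spread, and the bins above 0.5 lie below it for 27 weeks and for the difference.

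Among these 1947 genes the effects at the 2 ages mostly had opposite signs, which choosing on the difference favors. Opposite signs were seen in 720 of the 783 positive genes and 1025 of the 1164 negative ones, against 48.3% of all genes. The median effect of the negative genes was -0.27 at 27 weeks and 0.14 at 9 weeks on the log2 scale, and that of the positive genes 0.19 and -0.13. The effect at 27 weeks was the larger in size for 73.1% of negative and 63.0% of positive genes, against 60.5% of all genes. Read as ageing, 665 of the 1164 negative genes were called as falling with age in rotenone and 217 in DMSO, while 9 and 266 were called as rising. Of the 783 positive genes, 424 were called as rising with age in rotenone and 70 in DMSO, while 7 and 152 were called as falling. These counts share all 20 libraries with the difference, so they describe its make-up and carry no test. Over all genes 31.1% were called for age in rotenone, 12.9% as rising and 18.2% as falling, and 23.5% in DMSO, 9.64% as rising and 13.8% as falling.

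The number of genes called for the difference turned on single libraries, most of all on replicate 1 of the 27-week DMSO group. Without it 34 genes were called, 17 in each direction, with the 4 genes among them. All 34 had the same direction with all libraries, with a median size of 0.90 on the log2 scale without that library and 0.82 with it. Both fits share all the other libraries, so nothing is read from the shared direction. Without DMSO replicate 5 of 27 weeks 13 genes were called. Without DMSO replicate 2 of 27 weeks or rotenone replicate 4 of 9 weeks the number was 8, and without rotenone replicate 5 of 9 weeks it was 7. The number was 3 or 4 without DMSO replicate 4 of 9 weeks, rotenone replicates 1 or 5 of 27 weeks or rotenone replicate 3 of 9 weeks. It was 1 without DMSO replicate 4 of 27 weeks, DMSO replicate 1 of 9 weeks or rotenone replicate 4 of 27 weeks. Without any of the other 8 libraries, which were DMSO replicate 3 and rotenone replicates 2 and 3 of 27 weeks, and DMSO replicates 2, 3 and 5 and rotenone replicates 1 and 2 of 9 weeks, edgeR called 0 genes. Over the 20 fits without 1 library, 1619 to 2395 genes had an unadjusted p below 0.05. The size of the difference moved little in the 4 genes: it ran from -1.06 to -0.92 in Nfu_g_1_018392, from -0.98 to -0.84 in Nfu_g_1_020462, from -0.97 to -0.84 in Nfu_g_1_018359 and from -0.58 to -0.51 in Nfu_g_1_005740. In the order given, 10, 14, 11 and 12 of the 20 fits did not call the gene, and the highest adjusted p was 0.118 (edgeR). The call of Nfu_g_1_020462 also ended without a filter on low counts, without robust estimation, and without DMSO replicates 1 and 4 of 27 weeks together (edgeR adjusted p = 0.0523, 0.0528 and 0.0558).

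**Figure D5:**
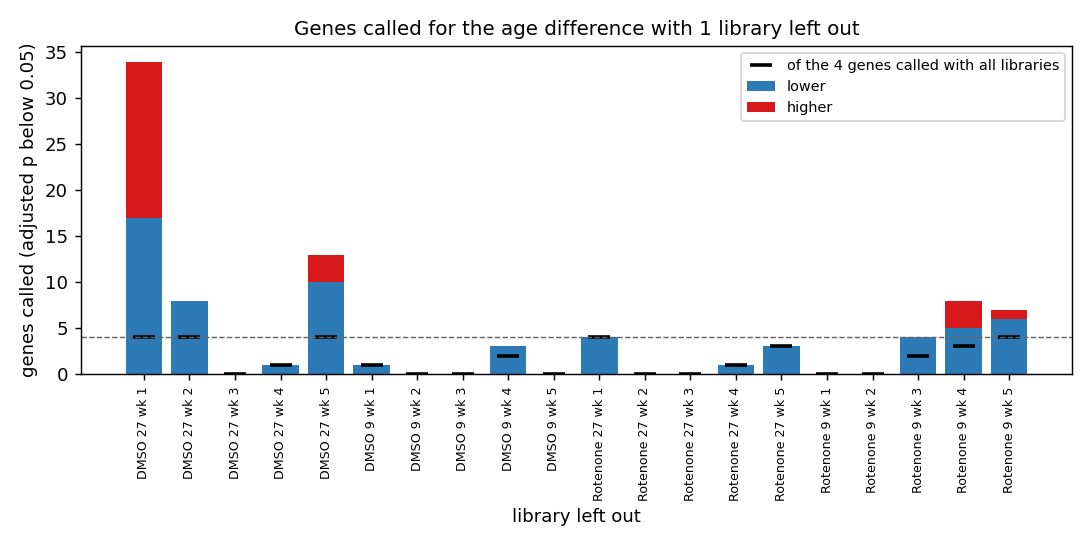
Number of genes called for the difference between the ages (y axis, edgeR adjusted p below 0.05) when the library named on the x axis is left out, split by direction; the dashed line is the number with all libraries and the black marks count those same 4 genes. The bar without DMSO replicate 1 of 27 weeks reaches 34, and 8 libraries have no bar.

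The groups differed in spread. The median SD of log2 CPM over genes was 0.18 in both 9-week groups, 0.19 in 27-week DMSO and 0.14 in 27-week rotenone. With library quality weights estimated by limma, where 1 is an average library, the 5 rotenone libraries of 27 weeks had weights from 1.06 to 1.72, and DMSO replicate 1 of 27 weeks had the lowest of all at 0.357. With these weights 18 genes were called for the difference, 7 positive and 11 negative. The part of this spread in the result was not tested. In brain tissue as a whole, fewer cells of a type and less RNA per cell cannot be told apart.

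Measures of the libraries themselves showed no age difference of the rotenone effect that passed an exact permutation test, among 5 tested. Treatment labels were permuted within each age, so the p-values are exact only where rotenone has no effect at either age. The share of counts in the 100 largest genes was 14.2% ± 0.897 and 14.3% ± 0.584 at 9 weeks with DMSO and rotenone, and 14.0% ± 0.704 and 13.4% ± 0.386 at 27 weeks (SD, n = 5 each; two-sided exact permutation p = 0.366, adjusted over 5 measures 0.609). On the first principal component, with 27.4% of the variance, the mean of rotenone minus that of DMSO was -22.7 at 27 weeks and -3.34 at 9 weeks. The difference between the ages was -19.4 (two-sided exact permutation p = 0.258, adjusted 0.609). On the second component, with 14.5% of the variance, that difference was 14.9 (two-sided exact permutation p = 0.492, adjusted 0.615). DMSO replicate 1 of 27 weeks lay lowest there at -72.0, and the next lowest was DMSO replicate 4 of that age at -29.1. Intervals were too wide to read in Nfu_g_1_020841 and Nfu_g_1_014206, whose levels varied widely from library to library. Nfu_g_1_020841 ran from 4.88 to 158 CPM in 9-week DMSO and from 6.72 to 128 CPM in 9-week rotenone libraries. At 27 weeks it stood at 10.1 and 8.23 CPM in DMSO replicates 1 and 4, at 114 to 204 CPM in the other DMSO libraries and at 123 to 242 CPM with rotenone. Its log2 difference was 0.62 with a 95% interval from -2.32 to 3.57. Nfu_g_1_014206 stood at 0.7097 to 3.85 CPM in some libraries of every group and at 261 to 1702 CPM in the others. Its log2 difference was -0.16 with an interval from -5.80 to 5.48.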

How the data were processed

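Per the labels' protocols, library preparation used Illumina's TruSeq RNA chemistry (version 2). The submitters' processing notes name featureCounts 1.4.6-p4, the aligner STAR 2.4.1d and bcl2fastq 1.8.4, while genome build, annotation and strand were not given in the sources used here. The deposited count table holds raw whole-number counts per gene. The deposited RPKM table was used only to recover gene lengths, because 99.96% of its values above 0 matched the counts (within 0.0011) with library totals recycled from row to row, and 7.34% with each library's own total.

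The test was edgeR 4.0.16 (under R 4.3.3) with filterByExpr (19452 of 26739 genes, 99.96% of counts), TMM factors from 0.980 to 1.02, and a robust quasi-likelihood fit of 1 mean per group to all 20 libraries. SEs follow from the test, and intervals are 95%. Log2 CPM used a prior count of 2. DESeq2 1.42.0, limma 3.58.1, other scalings, filters and left-out libraries were alternatives. The test was checked on simulated counts, drawn without an age effect in DMSO and with the same spread in every group. Each gene was drawn independently of the others. That check therefore does not cover groups of unequal spread, as seen here, genes that vary together or single outlying libraries. Its outcome is not given here, and nothing is read from it.

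Age and treatment in the labels gave the groups, and numbers of replicates only follow accession order. Named genes have a mean of at least 1 log2 CPM: for the difference, at most 2 per direction by size among called genes, filled by smallest p; for each age, at most 2 per direction by smallest p. Members, lists and rules were chosen with earlier results of these data known. Fixed gene and marker lists were not tested, since 0 identifiers matched names.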

Additional observations from a re-analysis of the deposited data

Results flagged for a closer look

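With all libraries, 4 genes were called by the edgeR test of the difference between the rotenone effects at 27 and 9 weeks. The log2 differences were -0.97 for Nfu_g_1_018392, -0.90 for Nfu_g_1_018359, -0.92 for Nfu_g_1_020462 and -0.55 for Nfu_g_1_005740. Of 20 fits without 1 library, 5 called all 4 of these genes and 8 called none of them.

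In 68 groups of 5 libraries, formed by the genes printed and the 5 library measures, the farthest library was set against its neighbour. In 6 of them that gap was over 0.71 of the group's range. With independent, normally distributed values about 1 in 20 groups, here 3.4, would show this. The groups here share libraries and include genes that vary together or very widely, so 3.4 is only a rough guide. Nfu_g_1_010257 stood at 11.6 CPM in DMSO replicate 3 of 27 weeks against 13.6 CPM in the nearest library, and at 26.14 CPM in rotenone replicate 3 of that age against 30.2 CPM. Nfu_g_1_012912 stood at 18.01 CPM in DMSO replicate 5 of 9 weeks against 12.9 CPM, and at 16.8 CPM in rotenone replicate 3 of that age against 26.4 CPM. Nfu_g_1_005777 stood at 88.2 CPM in the same DMSO replicate 5 against 66.6 CPM. DMSO replicate 4 of 27 weeks had 21427 genes with a count, against 21600 in the nearest library.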

How the results depend on the processing

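For the difference between the ages, 4 genes were called with all libraries and the main settings, 10 with a stricter filter (at least 1 CPM in at least 5 libraries), 142 with DESeq2, 18 with library quality weights and 13 without DMSO replicates 1 and 4 of 27 weeks together. Without 1 library the number ran from 0 to 34. For rotenone at 27 weeks, 76 genes became 128 with library totals, 128 with the stricter filter, 471 with DESeq2, 429 with quality weights, 21 with the 27-week libraries alone, 148 without both DMSO replicates, and 27 to 266 without 1 library. For rotenone at 9 weeks, 5 genes were called, against 94 with DESeq2, 1 with the 9-week libraries alone (none of the 5), 23 without both DMSO replicates, and 0 to 24 without 1 library. The cause was not tested, except that fits to 1 age hold 10 of the 20 libraries. No gene named for a comparison changed direction under any alternative. The age difference of the rotenone effect on total counts, -407766, ran from -961617 to 241924 without 1 library. Other scalings moved the median difference over all genes by no more than 0.02 on the log2 scale. Intervals were wider for genes of low level, and the part of sequencing depth in this was not tested. No paired analysis was possible because the labels pair no libraries and replicates were numbered by accession alone.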

Other observations

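Some genes with a small p for the difference between the ages lay close together in the count table. Of the 25 genes with an adjusted p below 0.1 (edgeR), 7 positive and 18 negative, 4 lay within 160 rows from row 7997, among 124 tested genes. Another 4 lay within 160 rows from row 13838, among 137 tested genes. Over all tested genes, 0.129% had such a p. The log2 differences were 0.58, -0.97, -0.90 and 0.92 in the first stretch, and -0.92, -0.43, 0.82 and -0.45 in the second. The first stretch holds Nfu_g_1_018392 and Nfu_g_1_018359 on rows 8060 and 8061 and Nfu_g_1_018285 on row 8111. The stretches were found by looking at the positions, their length was set afterwards, and whether row order follows the genome is not given in the sources used here. How often 25 genes lie this close by chance was not tested.

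Both genes named as rising with rotenone at 9 weeks shared DMSO replicate 5 of that age as a flagged library. Rotenone replicate 3 of 9 weeks was the lowest of its group in both, and was flagged in Nfu_g_1_012912 only. After each group's mean was removed, Nfu_g_1_012912 and Nfu_g_1_005777 had a correlation of 0.82 over the 20 libraries. This is a description with no test and no other pairs beside it.

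DESeq2 called 142 genes for the difference. All 142 had the same direction and an unadjusted p below 0.05 in edgeR, and their adjusted edgeR p-values reached 0.294. Both tools used the same counts, so nothing is read from the shared direction. The 142 genes held all 25 genes below 0.1 in edgeR and all 18 genes called with library quality weights. Their median size was 0.63 on the log2 scale. The lowest level held 28 of the 142, a smaller share than its 6484 of all 19452 tested genes.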
